A study of Pimephales promelas with 15 samples.

Results

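A set of 97 transcripts stood above solvent control at both doses of hexabromocyclododecane (HBCD) passed on by the mother, in RNA-seq of fathead minnow (Pimephales promelas) larvae. They were 97 of 14279 identifiers in the table and of 12400 within the limits on level and spread set out below. The members were chosen by their own expression values: an identifier on 1 or 2 rows, a mean over the 15 libraries from 1 to below 1000 CPM (counts per 1000000 of the column total), a pooled within-group SD of log2(CPM + 1) below 1, a mean above solvent control at both doses, and an unadjusted p under 0.05 at each dose in the unequal-variance test that the rule names. Differences from solvent control are therefore a description of how the set was picked, and no test of them is given as support. Both doses were set against the same 5 control libraries, so that a control group that happened to lie low for a transcript raises both differences together.

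The larvae came from adults fed HBCD, a brominated flame retardant, and were reared in clean water until 7 days after fertilization. The low HBCD group held 0.576 mg HBCD per kg larva after parental food with 11.5 mg per kg, the medium HBCD group held 1.77 mg per kg larva after food with 36.4 mg per kg, and the solvent control came from adults given ethanol-treated food, with HBCD below the detection limit. Each group had 5 libraries, lettered A to E, and each library was made from polyadenylated RNA of 1 pool of 20 whole larvae. No library of the high dose was used. The labels call the samples whole embryo bodies, and the design text calls them larvae. Whether the pools came from separate parents is not stated. The spread between libraries may be partly technical and may leave out differences between parents. The p-values would then not cover such differences. Totals of estimated counts, in units of 1000000, ranged from 12.8 to 35.2 in low HBCD, 12.6 to 26.4 in medium HBCD and 13.03 to 58.4 in solvent control, where replicates D and E were the deepest. Because a library is a whole-body mixture, fewer cells of a type and less RNA per cell cannot be told apart.

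HBCD is fat-soluble and persistent, and such compounds pass from the mother to the egg with the yolk lipids, so that embryos carry a dose before they feed. In fish, HBCD has been studied mainly for effects on the thyroid axis, on detoxifying enzymes and on oxidative balance. The identifiers in the files are protein accessions, and 0 of the 97 members matched the RefSeq table of 64593 fathead minnow genes. The files do not pair them with names, so no gene name, role, pathway or chromosome is given for any member, lists of pathway genes and tissue markers could not be counted, and the whole-body label could not be checked against markers.

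Most of the 97 differences were small, and a few were large. On the log2(CPM + 1) scale the members' median difference was 0.36 in low HBCD against solvent control (quartiles 0.23 and 0.49, range 0.09 to 2.31), where the median over all 12400 targets was 0.05. In medium HBCD against solvent control the median was 0.32 (quartiles 0.18 and 0.52, range 0.05 to 2.18), where the median over all targets was -0.02. Both differences were above 1 in 6 members and above 0.5 in 15, and both were below 0.5 in 62. The pseudocount of 1 shrinks the differences of members with low CPM.

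**Figure D1:**
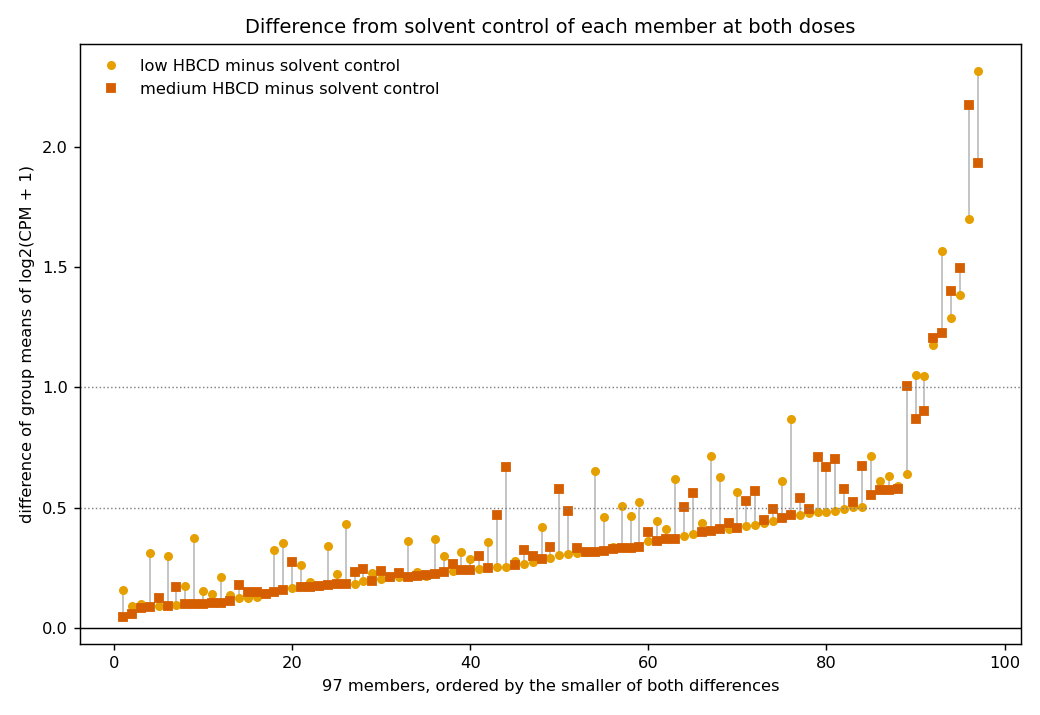
Differences of group means of log2(CPM + 1), low HBCD minus solvent control (circles) and medium HBCD minus solvent control (squares), for each of the 97 members, ordered along the x axis by the smaller of both. In 62 members both lie below 0.5, and 6 at the right end have both above 1.

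How the selection thinned the table can be followed step by step. Of the 12400 targets, 713 were higher in low HBCD than in solvent control at an unadjusted p under 0.05 (5.75%) and 341 were higher in medium HBCD (2.75%), against 283 and 557 that were lower. The 97 members met both criteria (0.782% of 12400). By the same rule 67 targets were lower at both doses, and 12 passed at both doses with opposite directions. Since both comparisons use the same controls, these counts cannot be multiplied as if independent. These counts of higher and lower targets are given for scaling by column totals only. With column totals the median difference over the 12400 targets was 0.05 in low HBCD and -0.02 in medium HBCD. With libraries scaled by TMM factors the median was 0.002 in low HBCD and -0.003 in medium HBCD. TMM factors are made to bring such medians near 0. The part of the scaling in the balance of higher and lower targets was not tested.

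At the edge of the rule the values were close. F1Q8H6, just inside, had 25.1 ± 7.34 CPM in low HBCD, 24.9 ± 8.45 CPM in medium HBCD and 15.9 ± 3.21 CPM in solvent control. A9C3S4, also just inside, had 35.9 ± 4.38 CPM in low HBCD, 35.4 ± 2.92 CPM in medium HBCD and 30.4 ± 2.78 CPM in solvent control. XP_005160782.1, just outside through its medium dose, had 33.3 ± 3.53 CPM in low HBCD, 31.6 ± 1.31 CPM in medium HBCD and 28.3 ± 2.66 CPM in solvent control (SD, n = 5 each for these). Q1LVE1 missed the rule through its low dose, with 21.3 ± 2.25 CPM in low HBCD, 21.5 ± 0.533 CPM in medium HBCD and 18.6 ± 1.26 CPM in solvent control. A9C3S4 and the pair outside lay within a few CPM of solvent control, and F1Q8H6 had a larger difference with a wider spread.

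The 6 members whose smaller difference was largest all had low levels, from 3.24 to 12.1 CPM on average, and wide spread between pools. XP_009298392.1 had 9.28, 6.76, 9.11, 9.13 and 13.9 CPM in low HBCD replicates A to E, 5.73, 12.7, 2.67, 10.9 and 7.06 CPM in medium HBCD, and 0, 2.12, 0, 5.77 and 0.902 CPM in solvent control. All 5 low HBCD libraries were above every control, whereas medium HBCD replicates A and C lay below solvent control D. Its mean CPM was 5.49 times that of solvent control in low HBCD and 4.45 times in medium HBCD.

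Q6DRE6 had 2.09, 8.62, 2.44, 2.81 and 4.58 CPM in low HBCD, 8.36, 2.16, 3.37, 9.71 and 7.20 CPM in medium HBCD, and 2.10, 0.682, 0, 0 and 0.156 CPM in solvent control. Only low HBCD A fell within the control range, under solvent control A, and the other 9 HBCD libraries were above it. A0A0R4IP27 had 16.5, 16.2, 16.0, 13.6 and 9.86 CPM in low HBCD, 17.8, 14.3, 15.8, 13.6 and 16.0 CPM in medium HBCD, and 8.39, 16.3, 2.72, 2.23 and 2.46 CPM in solvent control. The controls of A0A0R4IP27 fell into a high library, B, that overlapped both doses, an intermediate one, A, and 3 low ones.

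F1QI96 had 4.65, 0.689, 5.01, 5.56 and 4.42 CPM in low HBCD, 3.84, 5.78, 8.30, 3.66 and 1.11 CPM in medium HBCD, and 1.84, 7.15e-05, 0, 1.97 and 1.78 CPM in solvent control. Low HBCD B and medium HBCD E lay within the control range. X1WCE7 had 6.96, 6.86, 9.04, 9.93 and 19.0 CPM in low HBCD, 6.25, 7.39, 7.33, 6.38 and 10.2 CPM in medium HBCD, and 1.73, 0.70004, 2.58, 6.36 and 3.91 CPM in solvent control. Among its 10 HBCD libraries only medium HBCD A was below the highest control, D. Q90421 had 4.03, 6.10, 7.10, 2.23 and 5.94 CPM in low HBCD, 5.04, 8.38, 5.56, 4.93 and 2.29 CPM in medium HBCD, and 1.84, 0, 3.57, 2.01 and 1.85 CPM in solvent control, so that low HBCD D and medium HBCD E overlapped the controls.

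Another 9 members had both differences above 0.5, among them XP_009289979.1, F1QA96 and F1Q8H6, described with other groups of members. A8WG88 had 21.2, 19.6, 19.0, 18.7 and 20.1 CPM in low HBCD, 19.8, 16.2, 13.5, 20.1 and 18.7 CPM in medium HBCD, and 18.9, 10.1, 10.5, 10.6 and 9.91 CPM in solvent control. Its solvent control A lay among the HBCD libraries and the other 4 controls lay below all of them. F1QZS0 had 18.3, 10.5, 13.9, 16.5 and 15.8 CPM in low HBCD, 16.8, 16.7, 15.8, 18.0 and 16.3 CPM in medium HBCD, and 13.7, 12.1, 8.90, 8.60 and 8.21 CPM in solvent control, so that all medium HBCD libraries and 4 of the 5 low HBCD libraries were above the controls. The remaining 4, chosen with A8WG88 and F1QZS0 after their values were seen, were XP_001921954.3, NP_899192.1, B3DHK5 and NP_001315489.1, and in each of them HBCD libraries overlapped the controls.

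An estimated count of exactly 0 occurred in 4 members, XP_009298392.1, Q6DRE6, F1QI96 and Q90421, and in each only in solvent control libraries. These 4 were singled out after their values were seen. Their zeros sat, in that order, in solvent control A and C, C and D, C, and B, so that C held a zero in each but Q90421. A rule that picks transcripts with low controls favours zeros there. No share over all targets is given, so nothing is read from this count.

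**Figure D2:**
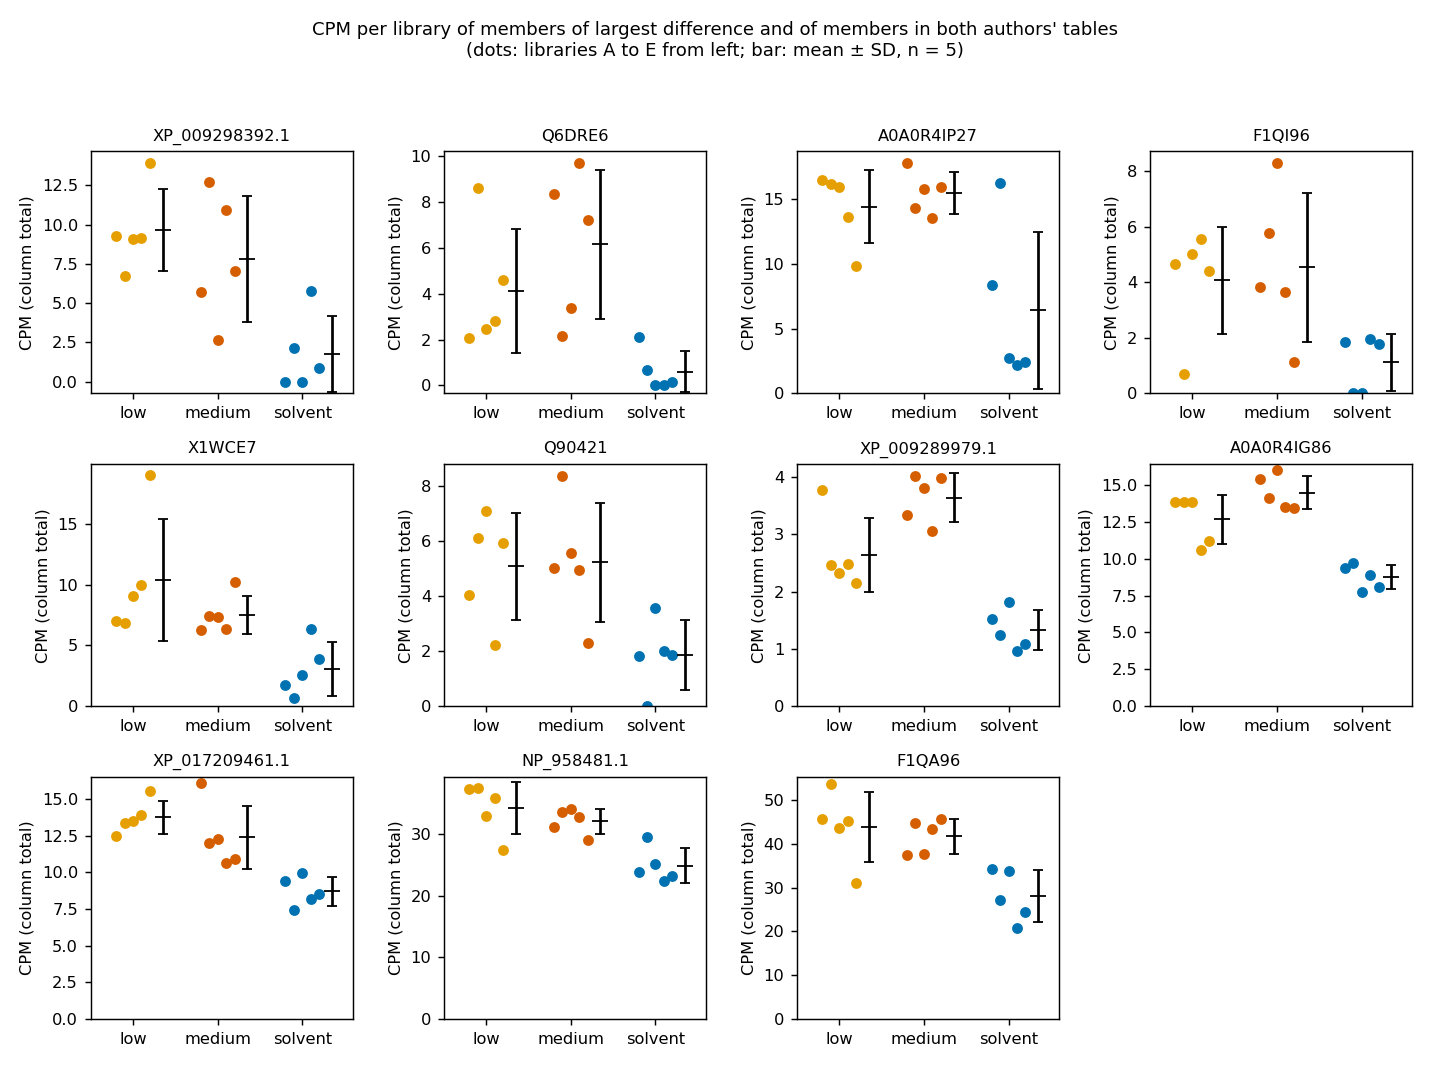
CPM per library in low HBCD, medium HBCD and solvent control (dots, replicates A to E from left; bars, mean ± SD, n = 5) for the 6 members of largest smaller difference and the 5 listed in both of the authors' tables. The first 6 panels show wide and overlapping groups, while in XP_009289979.1, A0A0R4IG86 and XP_017209461.1 all 10 HBCD libraries lie above the controls.

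Of the members, 5 appear with a higher level in both of the authors' deposited tables of DESeq2 results. Their differences were smaller and tighter than those of the 6 above. Both groups were picked by values of these same libraries, so nothing is read from that contrast. Among the 6 above, Q6DRE6 is listed in the authors' medium table only and X1WCE7 in their low table only. XP_009289979.1 had 3.77, 2.46, 2.32, 2.48 and 2.15 CPM in low HBCD, 3.33, 4.02, 3.80, 3.05 and 3.99 CPM in medium HBCD, and 1.53, 1.23, 1.82, 0.955 and 1.08 CPM in solvent control. No HBCD library reached down to the controls. The authors' deposited tables give it a log2 fold change of 1.02 in low HBCD and 1.54 in medium HBCD.

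A0A0R4IG86 had 13.8, 13.9, 13.8, 10.6 and 11.2 CPM in low HBCD, 15.4, 14.1, 16.0, 13.5 and 13.4 CPM in medium HBCD, and 9.38, 9.72, 7.75, 8.88 and 8.10 CPM in solvent control. XP_017209461.1 had 12.4, 13.4, 13.5, 13.9 and 15.5 CPM in low HBCD, 16.1, 12.01, 12.3, 10.7 and 10.9 CPM in medium HBCD, and 9.39, 7.41, 9.97, 8.17 and 8.53 CPM in solvent control. In both transcripts all 10 HBCD libraries were above all 5 controls. The fold changes in the authors' deposited tables were 0.49 in low HBCD and 0.74 in medium HBCD for A0A0R4IG86, and 0.62 in low HBCD and 0.53 in medium HBCD for XP_017209461.1, all on the log2 scale.

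NP_958481.1 had 37.4, 37.5, 32.9, 35.9 and 27.4 CPM in low HBCD, 31.2, 33.5, 34.04, 32.7 and 29.0 CPM in medium HBCD, and 23.9, 29.6, 25.2, 22.4 and 23.1 CPM in solvent control. Low HBCD E and medium HBCD E lay below solvent control B. F1QA96 had 45.7, 53.6, 43.6, 45.2 and 31.1 CPM in low HBCD, 37.3, 44.8, 37.5, 43.3 and 45.6 CPM in medium HBCD, and 34.2, 27.1, 33.7, 20.7 and 24.5 CPM in solvent control, with low HBCD E alone inside the control range.

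In all, 15 members were listed as higher in the authors' deposited table for low HBCD and 17 in the authors' deposited table for medium HBCD, 5 of them in both and 70 in neither. Of all 12400 targets, 0.25% were listed as higher in the authors' low table, 0.274% in the authors' medium table and 0.0484%, or 6, in both. These listings rest on the same libraries and contrasts as the rule and say nothing independent about the members. All 32 listings of a member had a positive log2 fold change in the authors' deposited tables.

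A gap between the groups was uncommon even among transcripts picked for their difference. In 8 members all 10 HBCD libraries were above all 5 solvent controls, against 10 of the 12400 targets (0.0806%), a count that the rule favours. The 8 were XP_009289979.1, A0A0R4IG86, XP_017209461.1, A5WUL9, F1QUX0, NP_998414.1, A2BIL9 and XP_021322326.1. All 5 low HBCD libraries were above the controls in 30 members, where this held for 1.5% of all 12400 targets, and all 5 medium HBCD libraries in 24 members, where it held for 0.71%. The rule favours these counts too, and nothing is read from them. In F1QUX0 the groups came close, with 78.6, 76.0, 48.2, 87.0 and 60.3 CPM in low HBCD, 69.4, 65.4, 51.1, 60.6 and 50.3 CPM in medium HBCD, and 47.3, 46.8, 41.2, 40.3 and 45.1 CPM in solvent control. NP_998414.1 was highest in low HBCD, with 147, 112, 113, 140.1 and 190.2 CPM, against 105, 119, 109, 110.3 and 109.8 CPM in medium HBCD and 102, 66.9, 79.1, 82.5 and 91.8 CPM in solvent control. A2BIL9 was separated by less than 1 CPM, with 33.3 CPM in the lowest HBCD library and 32.9 CPM in the highest control. In XP_021322326.1 the lowest HBCD library had 736 CPM and the highest control 723 CPM. The widths of these gaps thus differed between members. For their level, those of F1QUX0, A2BIL9, NP_998414.1 and XP_021322326.1 were narrow.

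Elsewhere 1 or more HBCD libraries closed the gap. In 28 members exactly 1 of the 10 HBCD libraries lay below the highest control, in 35 members 2 did, and in 26 members 3 or more, up to 8. The rule favours few such libraries and no share over all targets is given, so nothing is read from these counts.

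The levels of the members spread over much of the range that the rule allows, from 1 to below 1000 CPM. CPM is not divided by target length, so it does not order transcripts by abundance. The members' mean over the 15 libraries ran from 1.03 to 762 CPM with a median of 23.6 CPM, where the median of all 12400 targets was 29.9 CPM. Of the members, 23.7% were below 10 CPM and 12.4% at 100 CPM or more, where the shares of all targets were 22.4% and 15.3%. The 3 of highest CPM were among those of smallest difference. XP_021322326.1 averaged 765 ± 31.3 CPM in low HBCD, 807 ± 77.9 CPM in medium HBCD and 715 ± 8.69 CPM in solvent control (SD, n = 5 each). XP_005162832.1 averaged 663 ± 33.4 CPM in low HBCD, 689 ± 42.9 CPM in medium HBCD and 609 ± 36.4 CPM in solvent control (SD, n = 5 each). Q6DGL4 averaged 540.3 ± 25.2 CPM in low HBCD, 551 ± 44.1 CPM in medium HBCD and 496 ± 13.5 CPM in solvent control (SD, n = 5 each). Each of these differences was under 0.2 on the log2(CPM + 1) scale, and none of the 3 met the rule once libraries were scaled by TMM factors.

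Together the members held little of each library. They took 0.628 to 0.668% of the counts in low HBCD libraries, 0.605 to 0.668% in medium HBCD and 0.532 to 0.558% in solvent control, groups that the rule itself separates. The median member, measured as its deviation from its 15-library mean, lay between 0.05 and 0.18 on the log2 scale in low HBCD, between 0.01 and 0.14 in medium HBCD and between -0.24 and -0.18 in solvent control. Within their groups, low HBCD E (0.05) and medium HBCD E (0.01) were the lowest. Low HBCD E was the lowest library of its group in 35 members, and medium HBCD E in 34 members, where the shares over all 12400 targets were 19.9% and 20.9%.

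**Figure D3:**
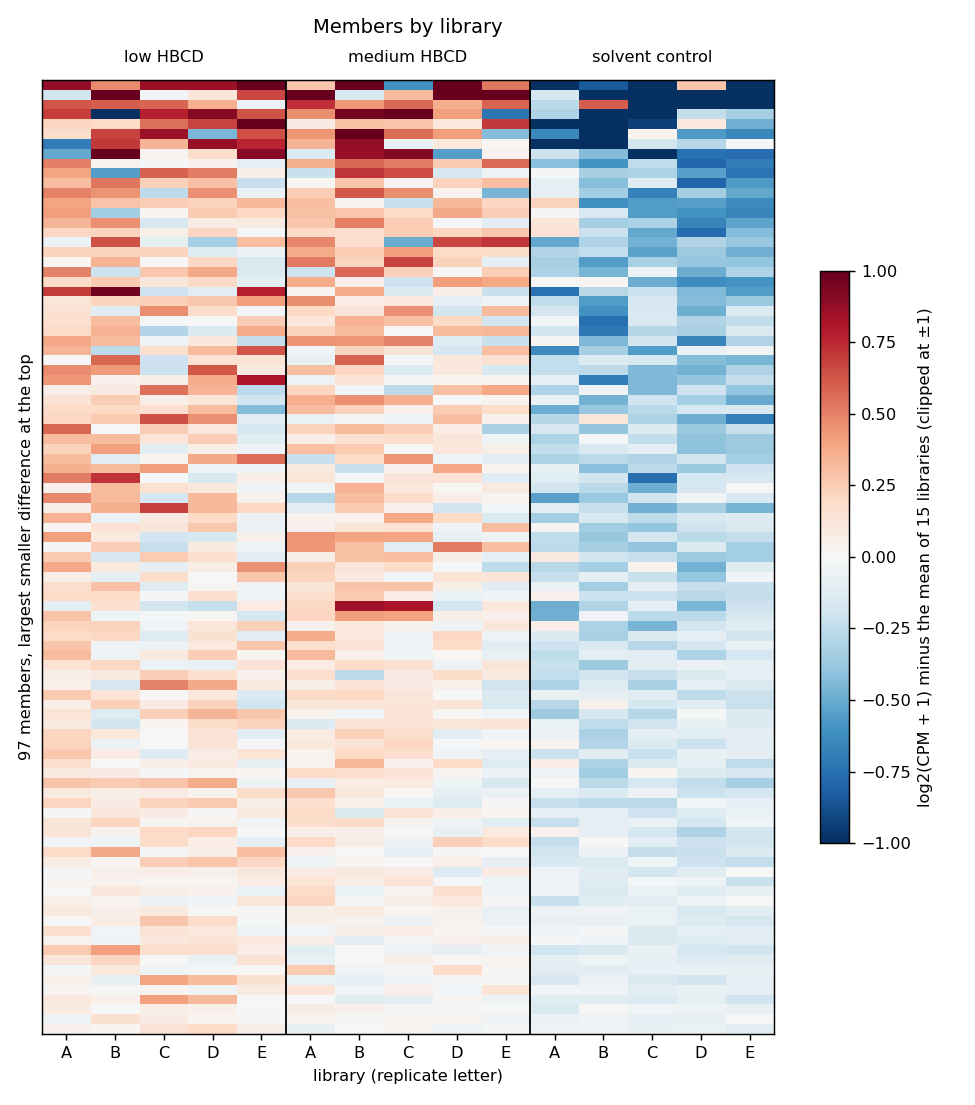
Log2(CPM + 1) of each of the 97 members (rows, largest smaller difference at the top) in each library (columns, low HBCD, medium HBCD and solvent control from left), as the difference from the mean of the 15 libraries, clipped at ±1. Red is above and blue below that mean; the strongest colours are mostly in the top rows, a few stand lower (F1R345 in medium HBCD B and C), and the bottom rows are pale.

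Beyond the rule, the members could be described by their identifiers alone. RefSeq NP accessions made up 25.8% of the members (25 of 97) and 15.2% of all 12400 targets, RefSeq XP accessions 17.5% and 26.4%, and UniProt accessions 56.7% and 58.5%. An identifier stood on 2 rows in 7 members (7.22%), where it was 4.86% of all targets. In 4 of those 7 both rows were higher at both doses. In A0A286Y942, NP_001071238.1 and F1QQ08 only 1 row was, and it held 97.9%, 74.9% and 85.1% of the counts. The other row of NP_001071238.1 averaged 18.8 CPM in low HBCD, 16.2 CPM in medium HBCD and 21.1 CPM in solvent control, so that its rows moved in opposite directions.

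Within the groups, the members as a whole varied little together from pool to pool. Over the 4656 pairs of members, deviations from the group mean across 15 libraries had a median Pearson r of 0.05 (quartiles -0.18 and 0.28), and the median over all pairs of targets was 0.01 (quartiles -0.29 and 0.30). An r above 0.8 was reached by 18 member pairs, or 0.387%, and by 1.16% of all pairs. The closest pair was NP_001315489.1 with NP_958885.1 at 0.89, followed by NP_001002695.1 with NP_001002411.1 at 0.88. These values share libraries, column totals and group means and are given as a description.

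Whether the doses differed from each other is the comparison that the rule did not use directly. The rule required both doses to exceed the same controls and set no limit on the distance between them. Its part in the differences between the doses was not tested. All 97 members were among the 13283 targets tested with edgeR's quasi-likelihood test of medium against low HBCD. After Benjamini-Hochberg adjustment over all targets, 0 of the 97 members were called, where 20 of the 13283 targets (0.151%) were called. At an unadjusted p under 0.05 it was 10 members, 6 higher and 4 lower in medium HBCD, or 10.3% of 97 where 8.81% of all targets reached it, so the members' share was near that of the table. DESeq2 called 1 member, Q9PVK5, where it called 1.09% of targets.

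Between the doses, most members and most targets had intervals within a doubling or halving. The members' differences from solvent control were themselves small, with medians of 0.36 in low HBCD and 0.32 in medium HBCD on the log2(CPM + 1) scale. Such intervals can therefore hold a difference between the doses as large as those from solvent control. The edgeR log2 fold change of medium over low HBCD had a median of 0.05 over the members and -0.01 over all targets, and ranged from -0.43 in A8KC11 to 0.65 in Q6DRE6. The 95% interval lay within a doubling or halving, that is between -1 and 1, in 87 of the 97 members, or 89.7%, where this held for 84.9% of all targets. It lay between -0.5 and 0.5 in 67 members, or 69.1%, where this held for 56.5% of all targets. The rule favours members of small spread, which have narrow intervals. Their median within-group SD was 0.16, where it was 0.21 over the 12400 targets. The targets tested with edgeR also include some outside the limits of the rule, so nothing is read from the members' larger shares. In 10 members the interval reached 1 or beyond in size. In 8 of these it also held 0, so that a difference that large could not be told from none at this spread, and in F1R345 and XP_009289979.1 it lay above 0. The direction of the median depended on the scaling: it was -0.02 on the log2(CPM + 1) scale with column totals and 0.05 with TMM factors, which shifted the median of all 12400 targets to -0.01 where column totals gave -0.07.

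Of the members higher in medium than in low HBCD, F1R345 had the smallest p. It had 9.81, 15.8, 15.5, 7.22 and 9.14 CPM in medium HBCD replicates A to E, and 7.78, 9.41, 7.21, 6.97 and 8.91 CPM in low HBCD, with a solvent control range of 5.68 to 7.76 CPM. Medium HBCD B and C stood well above the rest, A was just above the highest low HBCD library, and D and E lay within the low HBCD range. The edgeR log2 fold change of medium over low HBCD was 0.57 (SE 0.21, 95% interval 0.13 to 1.005, edgeR adjusted p = 0.431).

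Of those lower in medium than in low HBCD it was Q9PVK5. It had 245, 265, 254, 249.9 and 258 CPM in medium HBCD, and 318, 353, 297, 296 and 279 CPM in low HBCD, with a solvent control range of 231 to 252 CPM. Every low HBCD library was above every medium HBCD library, and medium HBCD A and D were inside the control range. The log2 fold change of medium over low HBCD was -0.22 (SE 0.07, 95% interval -0.37 to -0.07, edgeR adjusted p = 0.333, DESeq2 adjusted p = 0.0484).

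**Figure D4:**
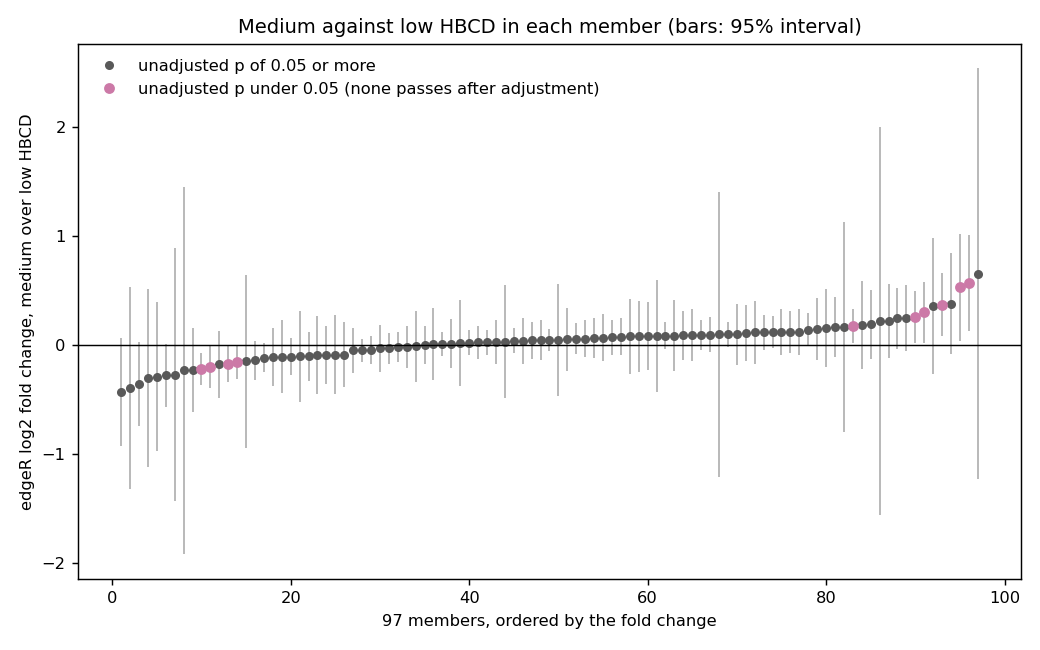
edgeR log2 fold change of medium over low HBCD with its 95% interval for each of the 97 members, ordered along the x axis. The points cluster around 0 with a median of 0.05; 10 have an unadjusted p under 0.05 and 0 pass after adjustment over 13283 targets.

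For the contrasts that chose the members, the edgeR fit gave positive fold changes for all 97 at both doses, an outcome that the rule favours. The medians were 0.33 in low HBCD and 0.37 in medium HBCD. After adjustment over all targets 0 members were called in low HBCD and 1 in medium HBCD, where 2 of 13283 targets were called higher at each dose (0.0151%). In low HBCD 69 members had an unadjusted edgeR p under 0.05, where 3.5% of the targets were higher at that p, and in medium HBCD 85 members had one, where it was 2.94%. Nothing is read from these counts, since the rule used the same contrasts. The 1 call was A0A0R4IG86, with an edgeR log2 fold change of 0.74 in medium HBCD (SE 0.11, edgeR adjusted p = 0.0474) and 0.49 in low HBCD (SE 0.11, edgeR adjusted p = 0.191). Its call is described, not counted as support, since the same contrast selected it.

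Membership moved with single libraries. Leaving out 1 library in turn left between 66 and 146 targets that met the rule, and between 58 and 75 of them were among the 97. The count was lowest without low HBCD D and highest without solvent control A. Without solvent control D and E, 72 targets met the rule, of which 37 were among the 97. In 20 members (20.6%) solvent control D and E were both below the other 3 controls, where this held for 12.2% of all targets. The part of library depth in this was not tested. The 97 members kept a positive difference at both doses without D and E, with medians of 0.34 in low HBCD and 0.31 in medium HBCD. The members were chosen with these same libraries, so the rule favours this outcome and nothing is read from it.

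Of the 97, 18 met the rule in all 15 settings that left out a library, and 55 in 10 or more. Each setting reuses libraries that chose the members. Being kept therefore describes how clearly a member passed the rule and is not separate support. The 18 included XP_009289979.1, A0A0R4IG86, XP_017209461.1, NP_958481.1, F1QA96, Q6DRE6 and Q9PVK5. F1Q8H6, at the edge of the rule, met it in 2 and A9C3S4 in 3. Of the 6 members of largest smaller difference, XP_009298392.1 and X1WCE7 met the rule in 12 settings each, A0A0R4IP27 in 11, Q90421 in 10 and F1QI96 in 5. Of the 18, 8 also met the rule with TMM factors and without solvent control D and E, with differences from 0.27 to 0.64 in low HBCD and from 0.30 to 1.004 in medium HBCD. They included XP_009289979.1, A0A0R4IG86, XP_017209461.1, F1QA96, A5WUL9 and F1QUX0. A5WUL9 had 2.70, 3.62, 2.68, 3.21 and 2.27 CPM in low HBCD, 4.23, 3.26, 4.83, 3.29 and 2.42 CPM in medium HBCD, and 1.89, 1.48, 1.92, 1.81 and 1.78 CPM in solvent control, with no overlap between the controls and either dose.

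**Figure D5:**
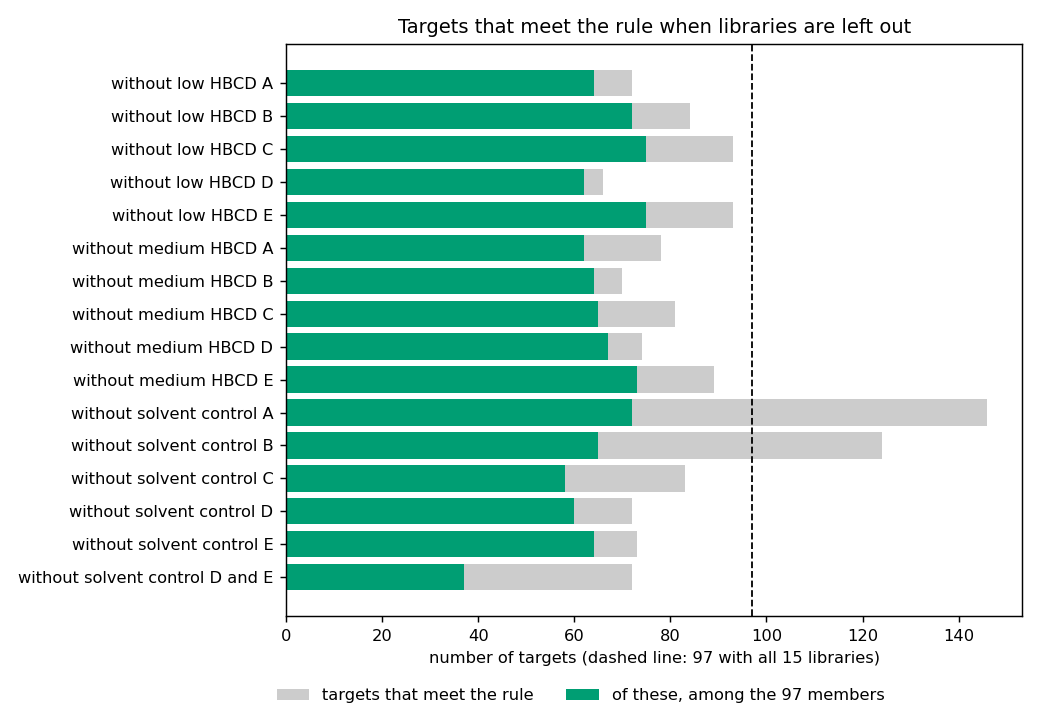
Number of targets that met the rule when 1 library, or solvent control D and E, was left out (grey bars), and how many of these were among the 97 members (green bars); the dashed line marks 97. The total ran from 66 without low HBCD D to 146 without solvent control A, and the overlap was smallest, 37, without solvent control D and E.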

How the data were processed

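RNA-seq of 15 pools of larvae in 3 groups was used. Trim Galore, kallisto and DESeq2 are named, per the submitters' processing notes, with no version or target reference given in the sources used here. What the authors deposited was a table of estimated counts per target, not normalized (15551 rows, 37.0 to 42.8% of values whole within 1e-06), so targets with near-identical copies are uncertain. Per the file headers, the authors' deposited comparison tables give a mean normalized count (a signal), a log2 fold change, its error and statistic (a score), and raw and adjusted p-values.

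Rows were summed per identifier; 141 identifiers on more than 2 rows were left out of the rule but not of the column totals. Whether CPM was meant over all identifiers or over those kept is not stated in the rule; both were run. Sums were rounded for edgeR 4.0.16 (R 4.3.3; TMM, filterByExpr, robust quasi-likelihood F test, all 15 libraries in 1 fit, Benjamini-Hochberg over all targets at 0.05), with DESeq2 1.42.0 as an alternative. Both scripts were tested on simulated data, with planted changes larger than most differences reported here. How they do at the sizes of most members' differences was not tested. The members, lists and alternatives were chosen with earlier results of these data known. The text names the 6 members of largest smaller difference, the 3 of highest CPM, those in both authors' tables, the smallest p between doses in each direction, and the edge of the rule; other names were chosen after their values were seen. Among pairs of libraries within a group, the median chi-square of counts was at least 1.97, above counting noise, so none was treated as a duplicate. Such a value cannot tell whether 2 libraries share a pool of RNA or parents. By the SD of log2 ratios between libraries, solvent control D and E, the deepest, were the closest pair (0.148).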

Additional observations from a re-analysis of the deposited data

Results flagged for a closer look

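Among 63 sets of 5 libraries (the named members, the library totals, the median member level and the share of counts in members, by group), 4 held a library whose gap to its nearest neighbour exceeded 0.71 of the range, where chance gives about 1 in 20. For F1QI96 in low HBCD the gap was 0.767 of the range, with replicate B at 0.689 CPM and the others between 4.42 and 5.56 CPM. For X1WCE7 in low HBCD it was 0.747, with replicate E at 19.0 CPM and the others between 6.86 and 9.93 CPM. For XP_009289979.1 in low HBCD it was 0.799, with replicate A at 3.77 CPM and the others between 2.15 and 2.48 CPM. For A9C3S4 in medium HBCD it was 0.931, with replicate E at 30.2 CPM and the others between 36.5 and 37.0 CPM. Over all 97 members 16 of 291 sets, or 5.498%, exceeded the limit.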

How the results depend on the processing

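The number of members was 97, and 24 of 25 alternatives left it within 1.5 times. This compares counts and not which targets were members. Without solvent control D and E the count was 72, of which 37 were among the 97. TMM factors gave 70 (64 shared with the 97). A pseudocount of 0.5 gave 94 and of 2 gave 97 (96 shared). An exact permutation test in place of Welch's gave 103 (90 shared). Identifiers on any number of rows gave 101, a mean from 5 CPM 84, no lower limit 99 and no SD limit 98. CPM over the identifiers kept, chosen after seeing the data, gave 96. Leaving out 1 library gave 66 to 146, with 58 to 75 among the 97. The medians of the 97 members moved by less than the median within-group SD in all 19 alternatives each, from 0.31 to 0.36 for low HBCD against solvent control, 0.28 to 0.35 for medium HBCD against solvent control and -0.05 to 0.05 for medium against low HBCD, the last changing sign. These alternatives reuse the libraries that chose the members, so the rule favours medians against solvent control that stay close. Settings that left out only libraries of the group outside a comparison could not move its median, so the count of 19 overstates how far each was tried. For medium against low HBCD the median within-group SD, 0.16, was larger in size than the median itself, -0.02. Staying within that SD says little there.

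For medium against low HBCD, edgeR called 20 targets. DESeq2 called 148, a fit on the 10 libraries of both doses 9, and the fit without solvent control D and E 13; leaving out 1 library gave 9 to 22. Members called numbered 0 in every alternative except DESeq2, with 1. Members at an unadjusted p under 0.05 numbered 5 to 14 over the alternatives. The share of all targets at that p is given for the main edgeR fit only, 8.81%. Nothing is therefore read from that range. F1R345 ranged from 0.42 to 0.70 on the log2 scale (adjusted p 0.252 to 0.699) and Q9PVK5 from -0.25 to -0.15 (adjusted p 0.0484 to 0.538) over 21 alternatives each. Some settings hold fewer libraries; beyond that the cause was not tested.

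Replicate letters are shared by the groups. Deviations of the 15 same-letter pairs correlated between -0.35 and 0.32, 7 above 0.1, with a median of 0.10. Pairs of different letters had a median of -0.02. Of the 15 libraries, 4 deviated most like a library of the same letter. No count for libraries without pairing is given, so nothing is read from these 4. Whether the letters pair the libraries was not tested, and the main fit treated them as unpaired. With the letter as a replicate block, 4 targets and 0 members were called between the doses, where the main fit called 20 targets. A library at 0 estimated counts occurred in 4 members, for which depth sets how low the level can be read.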
